A study of Mus musculus with 20 samples.

Results

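The proteasome subunit genes of the mouse were followed in liver RNA and ribosome footprints after siRNA against Eif3m, which encodes a subunit of translation initiation factor eIF3. A gene belonged to the set when its symbol in the deposited table began with Psma, Psmb, Psmc or Psmd followed by a number, and Psmb8, Psmb9, Psmb10 and Psmb11, which encode the subunits of the immunoproteasome and the thymoproteasome, were left out. This gave 35 of 38784 symbols, made up of 8 Psma, 7 Psmb, 6 Psmc and 14 Psmd genes. The libraries came from FVB/N mouse livers (age 6 to 8 weeks at the start) after 0.5 mg/kg of siRNA in lipid nanoparticles (LNP) given by the tail vein, with 1 injection in 5 days. Mice given Eif3m siRNA were compared with mice given a scrambled luciferase siRNA in the same kind of particle, at day 9 (3 animals per group) and at day 13 (2 animals per group), so that control livers also carried nanoparticles and an siRNA. Each of the 10 livers gave 1 RNA library and 1 ribosome footprint library (Ribo-seq, the sequencing of mRNA fragments protected by ribosomes), 20 libraries in all, and the p-values therefore measure the spread between single animals.

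The proteasome degrades proteins tagged with ubiquitin. Its core particle is a barrel of outer alpha rings, built from the Psma subunits and gating the entry, and inner beta rings, built from the Psmb subunits, of which Psmb5, Psmb6 and Psmb7 carry the chymotrypsin-like, caspase-like and trypsin-like active sites. The regulatory particle that caps the barrel has a base, with a ring of Psmc ATPases that unfold the substrate and the Psmd1, Psmd2 and Psmd4 subunits that hold receptors or bind ubiquitin, and a lid of further Psmd subunits with the deubiquitinase Psmd14. Psmd5, Psmd9 and Psmd10 encode chaperones that assemble the base and leave it afterwards, and Psma8 encodes a testis paralog of Psma7. The subunits are needed in fixed proportions, and liver, a tissue with high protein turnover, expresses them in every cell.

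Total counts were 34.7 M to 39.02 M in the Eif3m RNA libraries and 27.4 M to 37.8 M in the control RNA libraries of day 9, and 4.96 M to 19.8 M against 24.3 M to 26.4 M at day 13. The footprint libraries held 4.50 M to 6.16 M counts in Eif3m livers and 7.04 M to 7.69 M in control livers at day 9, and 1.64 M to 6.52 M against 1.97 M to 2.12 M at day 13. The targeted gene fell in both assays and on both days, with no overlap between groups, by 3.27 and 4.01 on the log2 scale in RNA at days 9 and 13 (edgeR adjusted p 5.5e-07 and 9.62e-07) and by 3.61 and 4.58 in footprints (edgeR adjusted p 4.9e-11 and 1.73e-09). RNA libraries were made with a KAPA mRNA capture kit at day 9 and with NeoPrep at day 13, per the labels, so RNA levels of different days differ by kit as well as by time. Hepatocyte markers (Alb, Ttr, Apoa1, Serpina1a, Hnf4a and Cps1) were all present and defined the tissue as labelled. Their summed level was 100600 to 111400 CPM in Eif3m livers against 138300 to 145500 CPM in control livers in day 9 RNA, and the sums did not overlap in any assay or day. A sum weighs the most abundant markers most. The median log2 difference of the 6 markers was -0.07 and -0.52 in RNA and -0.21 and -0.47 in footprints, at days 9 and 13. EdgeR called Ttr lower in each of these comparisons, Alb lower in all but RNA of day 9, and no other marker. In bulk liver, fewer cells of a type and less RNA per cell cannot be told apart. Levels below are in CPM, the usual counts scaled to a common library size, with library sizes adjusted by the trimmed mean of M values (TMM), a gene is called when its edgeR quasi-likelihood adjusted p is below 0.05, and values are given in replicate order.

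At day 13, 3 proteasome genes rose in footprints: Psmb6, the caspase-like catalytic subunit, Psmc4, an ATPase of the base, and Psmd9, a base chaperone. They were 3 of the 34 members tested, where 12.4% of all 12213 genes tested were called and 6.12% were called higher. No member fell. Psmb6 had 259 and 313 footprint CPM in Eif3m livers, against 209 and 206 CPM in control livers. Psmc4 had 102 and 118 CPM in Eif3m livers, against 76.6 and 71.9 CPM in control livers. Psmd9 had 65.9 and 69.6 CPM in Eif3m livers, against 39.5 and 51.1 CPM in control livers. In each of the 3 genes both Eif3m livers were above both control livers. The log2 differences were 0.47 for Psmb6 (SE 0.15, edgeR adjusted p 0.0466), 0.58 for Psmc4 (SE 0.16, edgeR adjusted p 0.0237) and 0.58 for Psmd9 (SE 0.18, edgeR adjusted p 0.0424). DESeq2 called Psmb6 and Psmc4 but not Psmd9. The call count was 0 without Eif3m replicate 2 or without either control of day 13, and 1 (Psmc4) without any of the day 9 controls. Over the 10 fits that each left out a library, the adjusted p ran from 0.0221 to 0.397 for Psmb6, from 0.0117 to 0.256 for Psmc4 and from 0.0191 to 0.339 for Psmd9, with every log2 difference above 0.

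The same 3 genes were not called at day 9 or in RNA. Psmb6 had 233, 231 and 205 footprint CPM in Eif3m livers and 193, 209 and 220 CPM in control livers at day 9 (log2 0.10, edgeR adjusted p 0.621), and the groups overlapped. Psmc4 had 89.5, 90.8 and 75.6 CPM in Eif3m livers and 70.3, 70.9 and 69.97 CPM in control livers (log2 0.28, edgeR adjusted p 0.143), without overlap. Psmd9 had 54.5, 44.02 and 44.9 CPM in Eif3m livers and 43.03, 46.3 and 43.1 CPM in control livers (log2 0.11, edgeR adjusted p 0.632). Psmc4 was thus the 1 of the 3 genes whose day 9 groups were apart. In RNA of day 13, Psmb6 had 13.99 and 14.7 CPM in Eif3m livers and 17.7 and 12.5 CPM in control livers, and Psmc4 had 47.4 and 41.3 CPM against 50.8 and 27.7 CPM, with overlap for both. Psmd9 RNA was 2.12 and 3.01 CPM in Eif3m livers and 2.09 and 0.774 CPM in control livers (log2 0.74, edgeR adjusted p 0.206), a level that rests on 36 and 15.5 counts in Eif3m siRNA livers against 44 and 16 in control livers.

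In RNA of day 13, 2 members fell: Psma5, an alpha ring subunit, and Psmd1, the large scaffold of the base. They were 2 of 35 members, where 16% of all 16444 genes tested were called and 9.87% were called lower. Psma5 had 37.3 and 36.8 RNA CPM in Eif3m livers, against 47.7 and 61.04 CPM in control livers. Psmd1 had 286 and 263 CPM in Eif3m livers, against 359 and 425 CPM in control livers. Both Eif3m livers were below both controls for each gene. The log2 difference was -0.55 for Psma5 (SE 0.17, edgeR adjusted p 0.0391) and -0.51 for Psmd1 (SE 0.14, edgeR adjusted p 0.0291). Their footprints of the same day were also lower in both Eif3m livers without passing the test, with log2 differences of -0.40 for Psma5 and -0.46 for Psmd1 (edgeR adjusted p 0.154 and 0.102). The RNA calls depended on single libraries: there were 0 calls without Eif3m replicate 2 of day 13, 5 without control replicate 1, 7 without control replicate 2, and 1 (Psmc6, higher) without any single library of day 9. Without Eif3m replicate 1 there were again 2 calls, for Psmd3 and Psmd8 in place of Psma5 and Psmd1. Psma5 and Psmd1 were negative under every setting tried. Neither was called by edgeR with DESeq2 size factors, library totals, no filter or day 13 alone. With library totals alone edgeR called Psmc6, Psmd12 and Psmd13, all higher. DESeq2 called Psmd1, Psmd3, Psmc6 and Psmd12 (Psmc6 and Psmd12 higher). With a library left out, the calls of Psma5 and Psmd1 each held in 1 of 10 fits, the one without control replicate 1 of day 13.

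**Figure D1:**
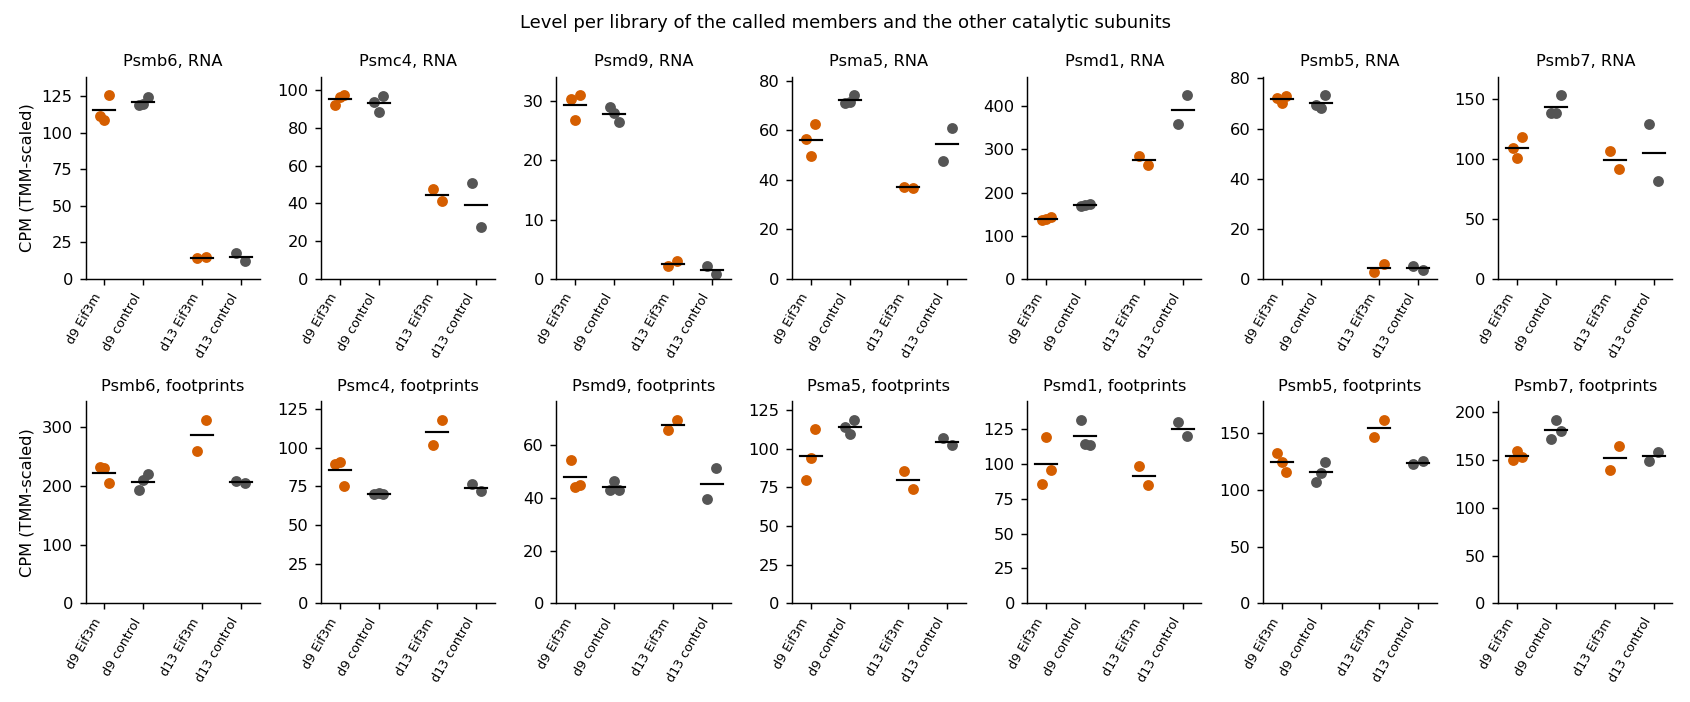
Level in each library (CPM, TMM-scaled, linear axes from 0) of the 5 called members and of Psmb5 and Psmb7, in RNA (top row) and footprints (bottom row). Orange points are Eif3m siRNA livers, grey points are control livers and bars are group means, with 3 animals per group at day 9 (d9) and 2 at day 13 (d13). In footprints of day 13 both Eif3m livers lie above both controls for Psmb6 (259 and 313 CPM against 209 and 206 CPM), and the RNA of Psmb6, Psmd9 and Psmb5 sits far lower at day 13 than at day 9 in both groups.

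The promoters of the 5 called members are shown as context for these genes, 3 of which were called higher in footprints and 2 lower in RNA. The directions come from different assays, and in RNA, the level that a promoter bears on, none of the 3 genes higher in footprints was called. Each window runs from 250 bases before to 50 bases after a start of the gene, is written 5′ to 3′ on the gene's strand, and comes from RefSeq for GRCm38.p6. Capitals mark TGACNNNGC, the core of the antioxidant response element, a motif known to be bound by Nfe2l1 and Nfe2l2, the transcription factors of the proteasome genes, with small Maf proteins.
Psmb6, higher in footprints, chr11:70525107-70525406, plus strand: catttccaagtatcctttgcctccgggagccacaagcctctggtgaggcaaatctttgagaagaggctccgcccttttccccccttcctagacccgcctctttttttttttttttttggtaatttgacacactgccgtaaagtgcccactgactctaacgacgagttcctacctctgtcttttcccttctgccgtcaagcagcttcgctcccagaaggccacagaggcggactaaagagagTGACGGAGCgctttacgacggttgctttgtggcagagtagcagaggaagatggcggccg
Psmc4, higher in footprints, chr7:28050043-28050342, minus strand: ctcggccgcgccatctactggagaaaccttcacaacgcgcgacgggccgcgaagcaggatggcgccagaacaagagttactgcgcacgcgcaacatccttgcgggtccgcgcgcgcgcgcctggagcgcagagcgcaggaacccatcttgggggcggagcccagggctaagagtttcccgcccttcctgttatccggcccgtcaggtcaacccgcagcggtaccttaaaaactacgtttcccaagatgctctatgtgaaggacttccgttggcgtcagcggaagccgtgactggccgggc
Psmd9, higher in footprints, chr5:123227940-123228239, plus strand: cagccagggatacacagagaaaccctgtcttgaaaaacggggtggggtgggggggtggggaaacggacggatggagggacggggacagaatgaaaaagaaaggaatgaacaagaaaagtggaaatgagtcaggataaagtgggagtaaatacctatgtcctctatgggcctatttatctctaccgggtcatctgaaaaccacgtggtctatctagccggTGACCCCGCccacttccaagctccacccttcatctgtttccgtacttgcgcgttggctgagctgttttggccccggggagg
Psma5, lower in RNA, chr3:108256676-108256975, plus strand: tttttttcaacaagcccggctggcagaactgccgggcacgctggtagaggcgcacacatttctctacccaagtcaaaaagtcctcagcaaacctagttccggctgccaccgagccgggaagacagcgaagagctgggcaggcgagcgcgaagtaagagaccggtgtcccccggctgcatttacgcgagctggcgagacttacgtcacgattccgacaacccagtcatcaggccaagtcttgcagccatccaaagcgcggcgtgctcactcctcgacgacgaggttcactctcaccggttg
Psmd1, lower in RNA, chr1:86064369-86064668, plus strand: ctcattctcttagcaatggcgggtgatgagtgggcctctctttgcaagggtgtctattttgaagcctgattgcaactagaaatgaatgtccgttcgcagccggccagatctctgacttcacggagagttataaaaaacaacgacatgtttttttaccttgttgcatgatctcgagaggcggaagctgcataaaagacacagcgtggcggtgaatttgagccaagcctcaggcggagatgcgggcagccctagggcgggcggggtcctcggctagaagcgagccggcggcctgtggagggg
The match began 9 bases before the start in Psmb6 and 31 bases before it in Psmd9, and the windows of Psmc4, Psma5 and Psmd1 held no match. The distances refer to the start on which each window was set. For Psmb6 that start lies inside the gene and differs from the outer gene start, chr11:70525324. Searched on both strands, TGACNNNGC was present in 5 of the 28 members in the table (17.9%: Psmb5, Psmb6, Psmc6, Psmd12 and Psmd9) and in 14.0% of all 27025 genes of the table. CCAAT, searched in the same way, was present in 11 of the 28 members (39.3%) and in 41.1% of all genes. A match is a description of the letters in the window and not of a factor bound there.

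The other active-site subunits were not called in either assay on either day with TMM scaling and both days in the fit. Psmb5, the chymotrypsin-like subunit, had 133, 125 and 116 footprint CPM in Eif3m livers and 107, 115 and 124 CPM in control livers at day 9. At day 13 it had 147 and 162 CPM in Eif3m livers, against 122 and 125 CPM in control livers, with no overlap and a log2 difference of 0.32 (95% confidence interval 0.0043 to 0.64, edgeR adjusted p 0.191). Its RNA was 72.04, 70.2 and 73.1 CPM in Eif3m livers and 69.5, 68.3 and 73.2 CPM in control livers at day 9, which overlapped. At day 13 its RNA was only 2.65 and 6.01 CPM in Eif3m livers and 5.23 and 3.48 CPM in control livers. Psmb7, the trypsin-like subunit, went the other way at day 9. It had 151, 159 and 153 footprint CPM in Eif3m livers and 172, 192 and 180 CPM in control livers (log2 -0.23, edgeR adjusted p 0.186). Its day 9 RNA was 110, 101 and 119 CPM in Eif3m livers and 139, 139 and 153 CPM in control livers, again without overlap (log2 -0.39, edgeR adjusted p 0.182). At day 13 Psmb7 footprints were 140 and 164 CPM in Eif3m livers and 149 and 159 CPM in control livers, and its RNA was 107 and 91.7 CPM against 129 and 81.7 CPM, both overlapping. Psmb6 RNA differed by log2 -0.07 at day 9 and -0.08 at day 13 (edgeR adjusted p 0.831 and 0.813), beside its higher footprints of day 13.

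At day 9 no member was called in either assay. In RNA, edgeR called 0 of 35 members, where 5.67% of all genes were called. The unadjusted edgeR p was below 0.05 for 8 of the 35 members and for 3382 of all 16444 genes. DESeq2 called 3, all lower (Psma4, Psmb2 and Psmd1), with no share of all genes set beside this count. In footprints, edgeR called 0 of 34, where 14.7% of all genes were called, and DESeq2 called 0. The unadjusted edgeR p was below 0.05 for 6 of the 34 members and for 3522 of all 12213 genes. The RNA count rose to 11, all lower (Psma1 to Psma5, Psmb2, Psmb3, Psmb7, Psmd1, Psmd3 and Psmd7), when day 9 was fitted without the day 13 libraries, where 23.2% of all genes were called and 12.7% were called lower. It was 3, all lower (Psma5, Psmb2 and Psmb7), without either of the day 13 controls, where 7.25% and 7.29% of all genes were called lower. Without a test, 18 of 35 members were lower in every Eif3m RNA library of day 9 than in any control and 0 were higher, where 20.3% of all genes were lower and 18.9% were higher in this way. The same count in footprints was 12 lower and 2 higher of 34, where 16.3% and 15.7% of all genes were so. At day 13 it was 9 lower and 7 higher of 35 members in RNA (29.1% and 18% of all genes) and 13 lower and 11 higher of 34 in footprints (27.1% and 28.1% of all genes).

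**Figure D2:**
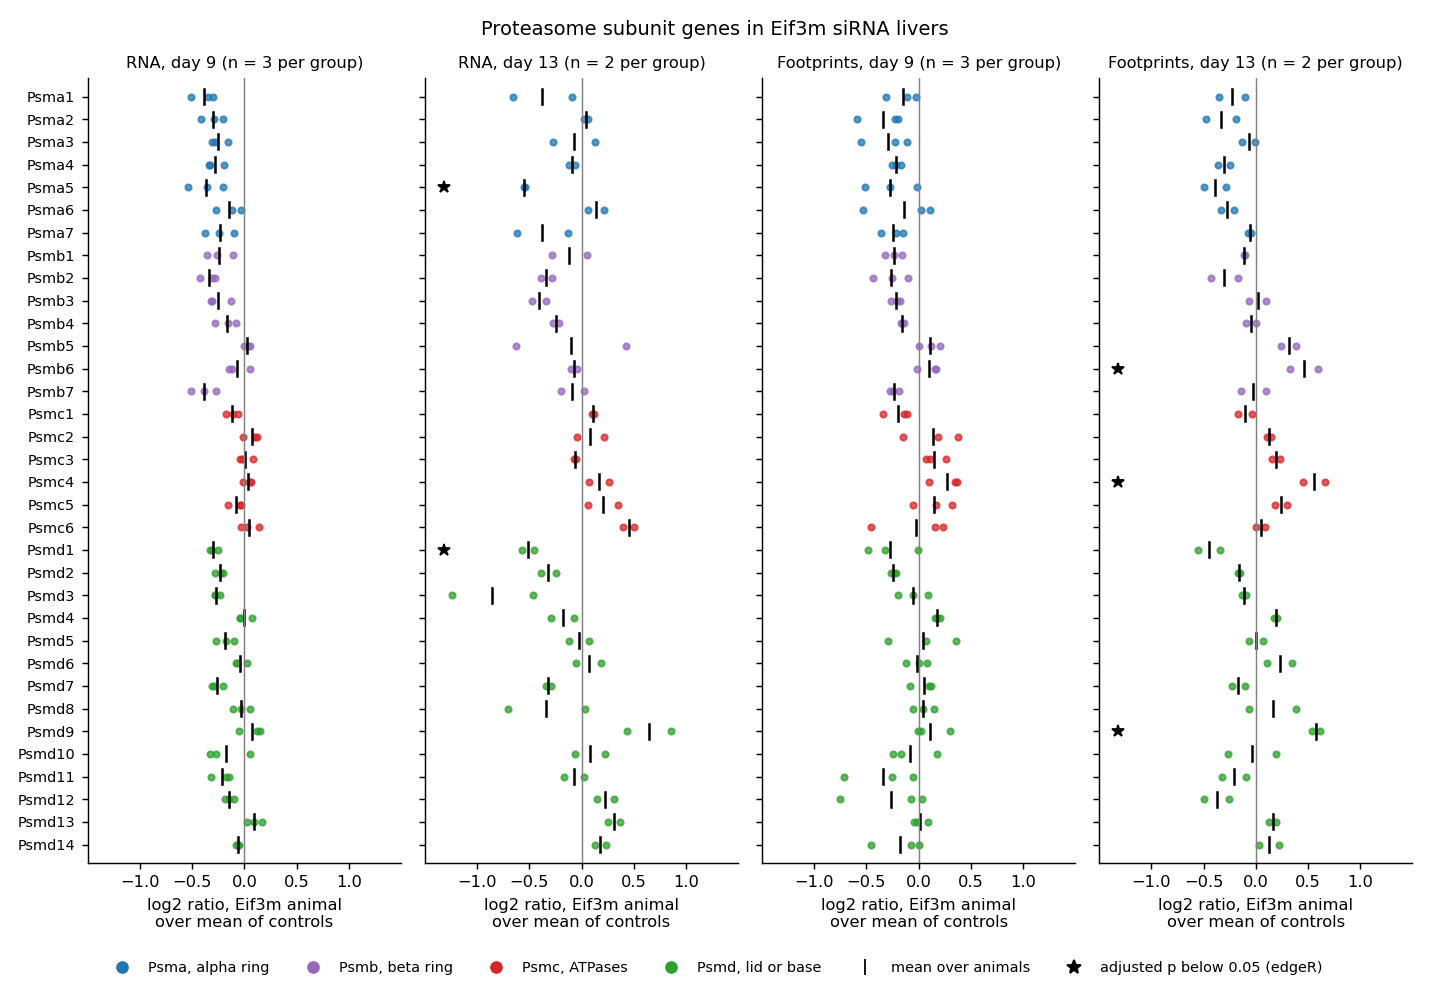
Log2 ratio of each Eif3m liver to the mean of the controls of its day for the 34 members other than Psma8, after adding 0.5 CPM to each level. Points are animals (3 per group at day 9, 2 at day 13), black bars their means, colours the Psma, Psmb, Psmc and Psmd genes, and stars mark the 2 RNA and 3 footprint calls of day 13. With this TMM scaling the fitted differences of all 7 Psma genes are below 0 and those of 5 of 6 Psmc genes above 0 in footprints of either day, while with library totals alone 3 of 7 Psma genes at day 9 and 6 of 7 at day 13 are above 0.

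The sizes of the changes were small. The median log2 difference over members was -0.17 in RNA and -0.13 in footprints at day 9, where the medians over all genes tested were -0.0045 and 0.0183. At day 13 it was -0.07 in RNA and -0.05 in footprints, where the medians over all genes were -0.16 and 0.0161. The footprint signs and the RNA sign of day 13 depended on the scaling. With library totals alone the member median was 0.11 in footprints at day 9 and 0.27 at day 13, while the median of all genes was 0.25 and 0.34, so that the members stayed below the median gene in footprints under either scaling. In RNA of day 13 the member median turned positive, at 0.04 with DESeq2 or its size factors and 0.14 under library totals alone. In RNA of day 9 it stayed negative but was -0.0349 with library totals alone, where 15 members were positive and 20 negative and the median of all genes was 0.12. The 95% confidence interval lay within 2-fold in either direction for 34 of 35 members in RNA and 34 of 34 in footprints at day 9, and for 32 of 35 and 34 of 34 at day 13. It lay within 1.5-fold for 28 of 35 and 32 of 34 members at day 9 and for 17 of 35 and 21 of 34 at day 13, where each group held 2 animals.

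With TMM scaling, the signs of the differences varied between subunit families, with no test between families, and with library totals alone most members of each family were positive in footprints of day 13. The alpha ring genes had negative log2 differences in footprints for 7 of 7 members at day 9 (median -0.24, lowest -0.33 for Psma2) and 7 of 7 at day 13 (median -0.28, lowest -0.40 for Psma5), counts that became 4 and 1 of 7 with library totals alone. The ATPase genes had positive differences for 5 of 6 members on either day (medians 0.15 and 0.16, highest 0.28 and 0.58 for Psmc4), and for 6 of 6 with library totals alone. Psmc1 was the ATPase gene with a negative TMM-scaled difference, -0.19 at day 9 and -0.09 at day 13. The beta ring genes were negative for 5 of 7 at day 9 and 4 of 7 at day 13 (3 and 0 with library totals alone), with Psmb5 and Psmb6 positive on both days. The lid and base Psmd genes were split, with 6 of 14 positive at day 9 and 7 of 14 at day 13 (11 and 12 with library totals alone). Of the base, the TMM-scaled differences of Psmd1 and Psmd2 were negative on both days and that of the ubiquitin receptor Psmd4 was positive, with 0.18 and 0.19 (edgeR adjusted p 0.317 and 0.443). In RNA of day 9, 7 of 8 Psma, 6 of 7 Psmb, 2 of 6 Psmc and 12 of 14 Psmd genes were negative (7, 5, 0 and 8 with library totals alone), and at day 13 this held for 5, 7, 1 and 8 (3, 3, 0 and 5 with library totals alone).

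A ratio of 2 families within a library does not depend on the scaling. The summed CPM of the Psmc genes over that of the Psma genes in footprints was 0.827, 0.893 and 0.776 in Eif3m livers at day 9, against 0.690, 0.689 and 0.638 in control livers. At day 13 it was 0.848 and 0.880 in Eif3m livers, against 0.650 and 0.671 in control livers. Every Eif3m liver was above every control of its day, by 23.8% and 30.8% on the means. In RNA the ratio was 1.07, 1.21 and 1.08 in Eif3m livers and 0.962, 0.921 and 0.921 in control livers at day 9, a difference of 19.7% of the control mean. At day 13 it was 0.783 and 0.879 in Eif3m livers and 0.764 and 0.546 in control livers, where the nearest libraries of the groups lay close together. The same ratio of the catalytic beta subunits Psmb5, Psmb6 and Psmb7 to the other beta subunits was 0.855, 0.849 and 0.746 in Eif3m footprints and 0.660, 0.738 and 0.731 in control footprints at day 9. At day 13 this beta ratio was 0.866 and 0.940 in Eif3m footprints, against 0.654 and 0.754 in control footprints. In RNA it was 0.711, 0.725 and 0.709 against 0.689, 0.674 and 0.697 at day 9 without overlap, and 0.573 and 0.596 against 0.612 and 0.437 at day 13 with overlap. Ratios to the summed Psma and Psmb genes were formed too. Psmc over these was higher in every Eif3m library than in any control of its assay and day, by 18.95% and 16.45% on the footprint means. Psmd over these was higher in this way at day 9, by 6.36% in RNA and 5.74% in footprints, and overlapped at day 13 in both assays. All these ratios sum the members, were formed with the changes of the members known, and were given no test.

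**Figure D3:**
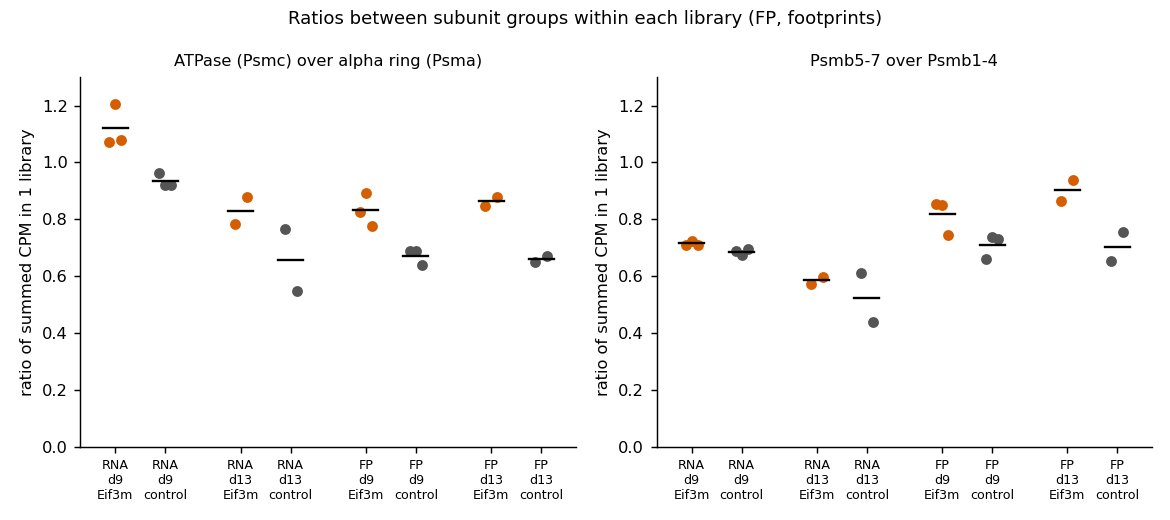
Ratio of summed CPM within each library, for Psmc over Psma genes (left) and for Psmb5, Psmb6 and Psmb7 over Psmb1, Psmb2, Psmb3 and Psmb4 (right). Orange points are Eif3m siRNA libraries, grey points controls and bars means (3 animals per group at day 9, 2 at day 13; FP, footprints). The Psmc over Psma ratio of every Eif3m library exceeds that of every control library of the same assay and day, with footprint means of 0.832 against 0.672 at day 9 and 0.864 against 0.661 at day 13.

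Summed over all members, the TMM-scaled footprint level was 4072 ± 248 CPM in Eif3m livers and 4354 ± 54.9 CPM in control livers at day 9 (SD, n = 3), and 4181 ± 60.8 CPM and 4184 ± 236 CPM at day 13 (SD, n = 2). As a share of the total counts of the library, without TMM scaling, the members took 0.446% ± 0.034 of footprints in Eif3m livers and 0.406% ± 0.0061 in control livers at day 9 (SD, n = 3), and 0.458% ± 0.023 and 0.367% ± 0.018 at day 13 (SD, n = 2). The direction of the summed level at day 9 was therefore opposite under the 2 scalings. With library totals alone, edgeR called 6 members higher in footprints at day 9 (Psmb5, Psmc2, Psmc3, Psmc4, Psmc5 and Psmd4) and 10 higher at day 13, among them Psmb6, Psmc4 and Psmd9. Of all genes, 18.8% and 16.4% were called higher under that scaling.

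Across the 34 members, which share libraries and a kit within a day, the footprint differences of day 13 and day 9 correlated with Pearson r 0.786 and Spearman rho 0.758, and 30 of 34 had the same sign. For RNA, where the kits differed, r was 0.641, rho was 0.66 and 24 of 34 had the same sign. Over all genes tested, r was 0.429 and 66.0% had the same sign in footprints, and r was 0.239 and 61.2% had the same sign in RNA. These are correlations across genes, which are not independent replicates. The difference of the siRNA effect between the days was tested as an interaction. EdgeR called 0 of 35 members in RNA (1.23% of all genes) and 0 of 34 in footprints (0.819% of all genes). The unadjusted edgeR p was below 0.05 for 2 and 0 members, and for 2920 of 16444 and 1484 of 12213 genes. DESeq2 called 1 in RNA (Psmd12) and 0 in footprints. The RNA count was 1 without control replicate 1 of day 13 (Psmd9) and 1 without control replicate 2 (Psmd3).

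Ribosome occupancy, the footprint CPM over the RNA CPM of the same animal, was compared between genes within day 9. Neither level was adjusted for transcript or coding length or for shared reads. The part of these in differences between genes was not tested. In control livers it ran from 0.664 ± 0.046 for Psmc1, an ATPase, to 2.24 ± 0.19 for Psmd11, a lid subunit (SD, n = 3). The median of the 34 members was 1.27, against 0.988 for the 11945 genes tested in both assays, and 24 members lay between the quartiles of all genes, 0.617 and 1.47. The alpha, beta, ATPase, and lid and base groups had medians of 1.27, 1.42, 0.953 and 1.23. In the order of the means each member overlapped its neighbour in single animals, except that Psmd11 (2.07 to 2.44) lay above Psmb3 (1.72 to 1.93). In Eif3m livers Psmc1 had 0.627 ± 0.032 and Psmd11 2.06 ± 0.35 (SD, n = 3). The Eif3m livers were all above the control livers in 4 of the 34 members (Psmc5, Psmd7, Psmd8 and Psmd10, listed after their values were seen), all below them in 0, and overlapped them in 30. No share of all genes is set beside this count, so whether it differs from that of other genes is not known. EdgeR called none of these 4 (adjusted p 1 each).

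The test of occupancy set the footprint change against the RNA change in 1 fit of all 20 libraries. EdgeR called 0 of 35 members at day 9 (0% of all 14236 genes), 0 at day 13 (0.0211%) and 0 for the difference of the days (0%). The unadjusted edgeR p was below 0.05 for 0, 2 and 1 members, and for 692, 1425 and 765 of all genes. DESeq2 and the fit with the animal as a block also called 0 members each time. The 95% confidence interval lay within 2-fold in either direction for 34 of 35 members at day 9 and for 27 of 35 at day 13. Psmb6 and Psmc4, higher in footprints at day 13, had occupancy changes of 0.46 and 0.30 (95% confidence intervals -0.02 to 0.95 and -0.26 to 0.86, edgeR adjusted p 0.525 and 0.777). Psmd9, also called higher in footprints, showed no such rise. Its footprint over RNA ratios at day 13 were 31.1 and 23.1 in Eif3m livers and 18.9 and 66.1 in control livers. These overlapped and rest on few RNA counts. Psmd12, a lid subunit, had -0.70 at day 13 (edgeR adjusted p 0.369, unadjusted p 0.0164). The other member at an unadjusted p below 0.05 at day 13, and the only one for the difference of the days, was Psma8, with log2 changes of 7.21 and 7.93 (SE 3.33 and 3.38, edgeR adjusted p 0.47 and 0.912), fitted on footprint counts of 1 and 17 in Eif3m livers against 0.5 and 0.5 in control livers at day 13.

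**Figure D4:**
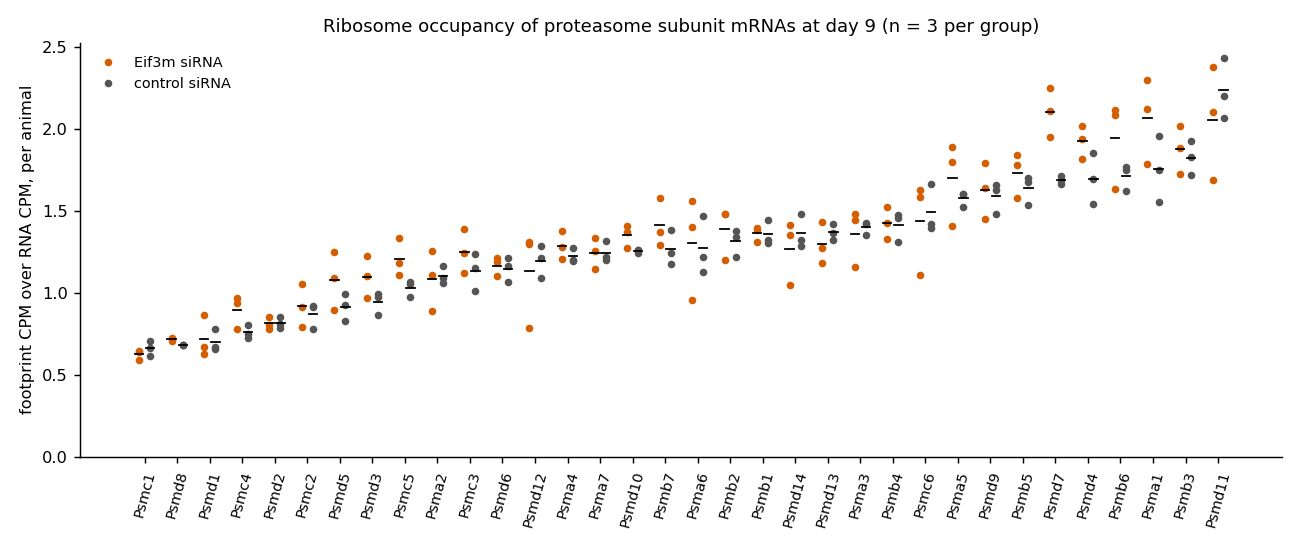
Footprint CPM over RNA CPM in each animal at day 9 for 34 members, ordered by the control mean. Orange points are Eif3m siRNA livers, grey points control livers and bars means, with 3 animals per group. Control means run from 0.664 for Psmc1 to 2.24 for Psmd11, and the groups overlap for most members.

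Between the days, RNA levels of the members differed more than their footprint levels. No share or correlation over all genes is set beside the 2-fold counts and correlations below. Whether other genes did the same is therefore not known. In control livers the RNA of 20 of 34 members was at least 2-fold higher (9) or lower (11) at day 13 than at day 9, and in Eif3m livers 21 of 34 were (9 and 12). In footprints 0 of 34 were in either group, with log2 ratios of day 13 over day 9 from -0.50 to 0.25 in control livers. Psmd9 RNA averaged 1.43 CPM in day 13 controls, against 27.8 CPM in day 9 controls, while its footprints were 45.3 and 44.1 CPM. Psmb5 RNA had a mean of 4.36 CPM at day 13 against 70.3 CPM at day 9, with footprints of 124 and 115 CPM. Psmd14, the lid deubiquitinase, went the other way, with 163 CPM at day 13 against 44.4 CPM at day 9 in RNA and 50.8 and 60.4 CPM in footprints. Across the 34 members the RNA log2 ratios of the days in Eif3m and control livers correlated with Pearson r 0.99 (rho 0.986), while those of footprints and RNA in control livers had r -0.224 (rho -0.209). Since the RNA kit changed with the day, the part of each cannot be told apart, and no RNA test between days was made. In footprints, made with the same kit on both days, edgeR called 0 of 34 members between the control livers of day 13 and day 9, where 10.3% of all genes were called. The unadjusted edgeR p was below 0.05 for 1 member and for 3112 of all 12213 genes. DESeq2 called 0, and without Eif3m replicate 1 of day 9 in the fit the count was 1 (Psmc6, lower at day 13).

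**Figure D5:**
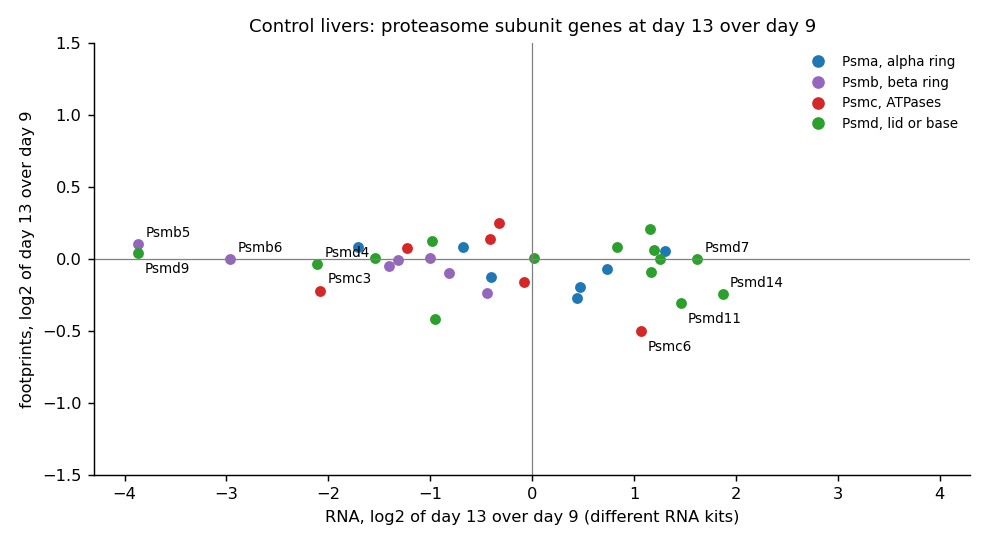
Log2 ratio of day 13 over day 9 (both axes log2) of the mean level in control livers for 34 members, with RNA on the x axis and footprints on the y axis; each point is a gene, coloured by family, with means over 2 animals at day 13 and 3 at day 9. RNA ratios run from -3.87 for Psmd9 to 1.87 for Psmd14 and footprint ratios from -0.50 to 0.25, and the RNA libraries of the days were made with different kits.

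Psma8, the testis paralog, was near the detection limit. Its RNA was counted 18, 28 and 35.5 times in Eif3m livers and 9, 15.5 and 16.5 times in control livers at day 9, and 20.7 and 10.3 times against 15.3 and 22.8 times at day 13. Its footprints numbered 1, 7.83 and 6 in Eif3m livers and 1.5, 7 and 8.17 in control livers at day 9, and 1 and 17 against 0.5 and 0.5 at day 13. It passed the filter on low counts in RNA, where it was not called (edgeR adjusted p 0.39 and 0.401), and failed it in footprints, while it passed that of the occupancy fit. The estimated counts are fractional in part, the way of counting is not stated in the labels used here, and whether reads from processed pseudogenes or from the paralog Psma7 enter a member's count was not tested.

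Genes that build, regulate or feed the proteasome were read beside the subunits. Vcp, the ATPase that extracts ubiquitylated proteins and hands them to the proteasome, fell in all 4 siRNA comparisons. Its footprints were 573, 631 and 633 CPM in Eif3m livers and 839, 861 and 798 CPM in control livers at day 9, and 533 and 471 CPM against 844 and 695 CPM at day 13. No Eif3m liver reached a control liver, and the log2 differences were -0.44 and -0.62 in footprints (edgeR adjusted p 0.0155 and 0.00816) and -0.44 and -0.52 in RNA (edgeR adjusted p 0.0441 and 0.0265). Of the 8 measured genes that deliver ubiquitylated substrates, Vcp was joined by the shuttle Ubqln2, which fell in RNA of day 13 (log2 -1.19, edgeR adjusted p 0.00652) and footprints of day 9 (log2 -0.48, edgeR adjusted p 0.0132), and by Ufd1l, a Vcp cofactor, which rose in RNA of day 13 (log2 0.47, edgeR adjusted p 0.0469). With library totals alone Vcp stayed negative and was called in 0 of the 4 comparisons, and with each of 10 libraries left out in turn its call held in 4 and 3 fits in RNA and in 8 and 8 fits in footprints, of days 9 and 13 in that order. The Ubqln2 calls held in 10 fits in RNA and 7 in footprints, and the Ufd1l call in 4. The other 4 genes of the regulatory particle measured (Adrm1, Shfm1, Uchl5 and Usp14) gave 0 edgeR calls in the 4 comparisons.

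Among the 5 core assembly factors, Pomp, the maturation factor of the core, fell in footprints of day 9 (log2 -0.44, edgeR adjusted p 0.0267). Psmg1, an alpha ring assembly chaperone, rose in RNA of day 13 (log2 0.50, edgeR adjusted p 0.0409), and Psmg4 rose in footprints of day 13, with 8.59 and 11.9 CPM in Eif3m livers against 3.48 and 3.73 CPM in control livers (log2 1.58, edgeR adjusted p 0.0142). The control footprint libraries of that day held 1.97 M to 2.12 M counts, so the Psmg4 levels rest on few counts. Nfe2l1, the transcription factor that raises proteasome genes when degradation is limiting, fell in RNA of day 13, with 30.4 and 27.6 CPM in Eif3m livers against 49.4 and 37.2 CPM in control livers (log2 -0.57, edgeR adjusted p 0.0304). Its footprints had log2 differences of -0.02 on either day, and the other 4 genes of its axis (Nfe2l2, Ddi2, Ngly1 and Syvn1) were not called. Of the 4 ubiquitin precursor genes, Ubb rose in footprints of day 9 (log2 0.46, edgeR adjusted p 0.0235), and Rps27a rose in RNA of day 13 (log2 1.27) and in footprints of both days (log2 1.75 and 1.51), where reads shared with its pseudogenes may not be separable. Of 10 fits with a library left out, the calls held in 6 for Pomp, 8 for Psmg1, 7 for Psmg4, 1 for Nfe2l1, 7 for Ubb, and 10, 10 and 6 for Rps27a in RNA of day 13 and footprints of days 9 and 13. With library totals alone the calls of Pomp and Nfe2l1 were lost. The 5 caps and inhibitors (Psme1, Psme2, Psme3, Psme4 and Psmf1) gave 0 edgeR calls in the 4 comparisons.

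Of the 3 immunoproteasome subunits, which replace Psmb5, Psmb6 and Psmb7 in immune cells and under interferon, edgeR called 1 in footprints of day 13 (12.4% of all genes) and 0 in RNA of that day (16% of all genes). Their RNA was low at day 13. Group means in Eif3m and control livers were 4.21 and 6.36 CPM for Psmb8, 1.60 and 3.16 CPM for Psmb9, and 0.364 and 0.597 CPM for Psmb10. At these levels a change in RNA could be missed. Psmb10 fell in footprints of day 13, with 33.2 and 38.8 CPM in Eif3m livers against 57.4 and 77.8 CPM in control livers (log2 -0.89, edgeR adjusted p 0.015). This call held in 7 of 10 fits with a library left out and was lost with library totals alone. Psmb8 and Psmb9 had -0.58 and -0.65 in the same comparison (edgeR adjusted p 0.0926 and 0.0784). At day 9 the 3 genes gave 0 edgeR calls. Beside this result, the summed footprint level of 8 interferon-stimulated genes at day 13 was 100.3 to 103 CPM in Eif3m livers and 132 to 137 CPM in control livers, and that of 6 Kupffer cell markers was 148 to 153 CPM against 241 to 295 CPM, with no marker at 0. The 6 monocyte and macrophage markers summed to 107 to 120 CPM against 116 to 118 CPM at day 13, with 1 of the 5 tested called higher and 2 called lower (median log2 -0.45). The 6 stellate cell markers summed to 544 to 646 CPM against 796 to 826 CPM, with 0 called higher and 2 called lower (Col1a1 and Col3a1, median log2 -0.11). The 6 endothelial markers overlapped, at 463 to 540 CPM against 514 to 537 CPM, with 0 called. The 8 lymphocyte markers also overlapped, at 2.29 to 3.83 CPM against 2.32 to 2.66 CPM, with 0 of the 2 tested called. The part of these cells in the Psmb10 result was not tested.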

How the data were processed

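RNA-seq and Ribo-seq libraries of 10 mouse livers were analysed from 1 deposited table, in which the authors gave estimated counts per gene symbol, with no normalization. Per the submitters' processing notes cutadapt, Bowtie and Bowtie2 were used, in an order that is not stated there, and neither the genome build and annotation nor the way of counting is stated in the labels used here. Per the labels' protocols, RNA libraries were made with KAPA mRNA capture (day 9) or NeoPrep (day 13) and footprints with ART-seq. Of the non-zero values, 44.3% were not whole within 0.01, so the counts were rounded to whole numbers. Groups came from the sample titles.

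Each assay was fitted over all genes in 1 model of 4 groups (16444 genes in RNA and 12213 in footprints after filterByExpr), and occupancy in 1 model of 8 groups, with TMM factors computed within each assay, edgeR 4.0.16 (robust quasi-likelihood test, two-sided, Benjamini-Hochberg adjustment over all genes) and R 4.3.3. Standard errors were taken from the F statistic of each test. Alternatives were DESeq2 1.42.0, other scalings and filters (a mean of at least 5 CPM, or no filter), each day alone, a replicate block and leaving out each library. RNA and footprints of an animal share an identifier in the labels, which is the source of the animal block in the occupancy fit; it called 0 members, like the fit without it. Members were named by this rule: every called member, the catalytic subunits and members that failed the filter are given in full, and the others by count and range. The members and the lists of related genes were chosen with earlier results of these data known. Promoters were matched by symbol to RefSeq (28 of 35 members). Footprint density per coding length was not computed, since no coding lengths were used here.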

Additional observations from a re-analysis of the deposited data

Results flagged for a closer look

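With TMM scaling, Psmc1 and Psmd12 had opposite RNA differences on the 2 days: every Eif3m library was below every control library at day 9 and above every control library at day 13. Of all genes tested in RNA, 20.3% were lower in this way at day 9 and 18% were higher at day 13. The share of genes that did both is not given here. For Psmc1 the difference of the siRNA effect between the days was 0.22 on the log2 scale (95% confidence interval -0.15 to 0.59, edgeR adjusted p 0.535). For Psmd12 it was 0.38 (95% confidence interval 0.0015 to 0.76, edgeR adjusted p 0.279), and DESeq2 called it. With library totals alone the Psmc1 difference was positive on both days, 0.02 at day 9 and 0.33 at day 13, and that of Psmd12 was -0.01 at day 9 and 0.45 at day 13. Footprints of both genes were not called on either day. Psmd12 had 259 and 232 RNA CPM in Eif3m livers against 212 and 206 CPM in control livers at day 13, and 83.6, 81.5 and 86.5 CPM against 91.7, 91.8 and 95.1 CPM at day 9. The RNA kit changed between the days, and kit and day cannot be told apart.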

How the results depend on the processing

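The count of called members was within 1.5 times the reported count in 132 alternatives and moved in 33. This rule compares counts only, not the genes called or their direction. RNA of day 13 gave 2 calls, against 4 with DESeq2, 1 with DESeq2 size factors, 0 with day 13 alone, 1 with no filter and 1 with a replicate block. With library totals alone the calls were Psmc6, Psmd12 and Psmd13, all higher, where the reported calls of Psma5 and Psmd1 were lower. The call with DESeq2 size factors was a Psmc gene, and all 6 Psmc genes were positive there. RNA of day 9 gave 0, against 3 with DESeq2 and 11 with day 9 alone, and the RNA difference of the days 0, against 1 with DESeq2. Footprints of day 13 gave 3, against 10 with library totals alone and 0 with the replicate block, and footprints of day 9 gave 0, against 6 with library totals alone. The control footprints between days gave 0, against 1 with library totals alone and 1 with no filter. Leaving out each library gave 0 to 7 calls in RNA of day 13, 0 to 3 in RNA of day 9, 0 to 1 in the RNA difference of the days, 0 to 1 for control footprints between days, 0 to 4 in footprints of day 13, and 0 for the other comparisons. The cause was not tested. Single genes kept direction and side of the threshold in 577 alternatives, lost their call in 133, gained one in 14 and reversed in 24. Psmb5 in RNA of day 13 was 0.031 with day 13 alone and 0.0062 with library totals alone (-0.73 to 0.45 with a library left out). Psmb6 in RNA was 0.0157 at day 13 with DESeq2, 0.023 with DESeq2 size factors, 0.0236 with day 13 alone, 0.0212 where genes had to reach a mean of 5 CPM, and 0.13 with library totals alone (-0.33 to 0.19 with a library left out), and 0.0631 at day 9 with library totals alone. Psmb7 in RNA of day 13 was 0.028 with DESeq2, 0.0279 with DESeq2 size factors, 0.0258 under that filter, 0.0177 with day 13 alone and 0.14 with library totals alone (-0.39 to 0.29). Psmb7 in footprints of day 13 was 0.31 with library totals alone, 0.0038 under that filter and 0.0276 with no filter (-0.13 to 0.11). Psmc4 in RNA of day 13 ranged from -0.20 to 0.69 with a library left out. A left-out library of day 13 leaves 1 animal in its group, which is then assumed to vary like the others.

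Replicate numbers of Eif3m and control libraries named no shared animal. Same-numbered libraries had correlations of their deviations of -0.066, -0.004 and 0.237 in RNA and -0.141, -0.048 and 0.039 in footprints at day 9. At day 13 they were -0.071 in RNA and 0.074 in footprints, where deviations of 2 animals mirror each other and the values decide nothing. The correlations cannot tell whether same-numbered libraries shared handling. Groups of 2 or 3 animals and footprint totals down to 1.64 M counts limit what can be called, and no test for outlying values within a group was run at 2 or 3 animals.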
